A study of Drosophila melanogaster with 3 samples.

Results

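A minority of the sites that Hr4 occupied in Drosophila white prepupae lay in sequence rich in G and C. A summit, the position of highest signal within a peak, was counted as GC-rich when G and C made up 45% or more of the window from 50 bp before it to 50 bp after it in the dm6 genome. By this rule 509 of the 8687 reproducible summits on the 6 main chromosome arms (2L, 2R, 3L, 3R, 4 and X) were GC-rich, 5.86% (95% Wilson interval 5.38 to 6.37). The other 8178 summits had a GC content under 45% and are called the other summits. The rule used sequence alone, so signal, annotation and support by replicates are measures it did not use. GC content and the motifs within the window are not independent of it. Annotation is not independent of it either, because exons differ from other sequence in GC content.

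Chromatin immunoprecipitation followed by sequencing (ChIP-seq) located Hr4 in 3 biological replicates of whole animals at the white prepupa stage, which form 1 group. All carried Hr4 with green fluorescent protein (GFP) fused to its C-terminus as a stable transgene in the strain Hr4-GFP, males and females were pooled, and the age is labelled as 48 days, which does not match the white prepupa stage, so what the value refers to is unclear. The sample descriptions name an antibody against GFP, while the antibody field of the labels names Hr4. Chromatin was sonicated to 200 to 800 bp, and the sources used here give neither the number of animals per replicate, nor the promoter of the transgene, nor its copy number. No untreated or untagged samples were analysed here, so no value below is set against a background measured in such animals. Replicate 1 stood apart: GC-rich entries were 22.2% of its whole list of peaks and background, against 13.2% in replicate 2 and 14% in replicate 3, and results that rest on it are given with and without it.

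Hr4 is a nuclear receptor of the ecdysone response, the hormone programme that turns a larva into a pupa. In Drosophila, exons have a higher GC content than introns and intergenic sequence, and A and T runs are common in regulatory DNA. Core promoters of broadly expressed genes often carry the DNA replication-related element (DRE) or the binding motif of M1BP, promoters of regulated genes more often a TATA box, and GAGA repeats are bound by GAGA factor, a protein that helps keep promoters open.

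The sequences below show what a GC-rich summit looked like. They are windows of 50 bp to each side of the summit, on the + strand of dm6, and 1 chromosome arm is left out of them, so they are the strongest or highest among the remaining arms. The highest GC content of all, near Dll, and the strongest coding exon summit of all, near Cib2, lie on the arm left out. The sequences come from the 5 strongest GC-rich summits, from the one with the highest GC content (nearest gene CG6574), from the strongest in a coding exon (nearest gene CG34268), from the strongest in an exon of a non-coding gene (nearest gene RhoGAP92B) and from the strongest that held the M1BP motif (RpL7). The last line is the strongest of the other summits, near CG14100, for contrast. Their positions are chr3R:16222452-16222552 for tara, chrX:13131305-13131405 for MFS10, chr3L:21880443-21880543 for mub, chrX:2050222-2050322 for moody, chr3R:16986618-16986718 for CG18622, chr3R:10863590-10863690 for CG6574, chr3L:506214-506314 for CG34268, chr3R:19908957-19909057 for RhoGAP92B, chr2L:10200988-10201088 for RpL7 and chr3L:19590562-19590662 for CG14100. Capitals mark matches on either strand to any of the 23 motifs that were searched.
tara: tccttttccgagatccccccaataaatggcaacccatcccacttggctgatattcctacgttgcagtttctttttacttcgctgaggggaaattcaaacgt
MFS10: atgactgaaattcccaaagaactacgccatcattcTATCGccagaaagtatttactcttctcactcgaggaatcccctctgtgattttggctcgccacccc
mub: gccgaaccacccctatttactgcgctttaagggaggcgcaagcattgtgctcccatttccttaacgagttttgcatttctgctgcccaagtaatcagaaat
moody: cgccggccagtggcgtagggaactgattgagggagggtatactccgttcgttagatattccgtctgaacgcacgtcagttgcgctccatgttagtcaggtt
CG18622: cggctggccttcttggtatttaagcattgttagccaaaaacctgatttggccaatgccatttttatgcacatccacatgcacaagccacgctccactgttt
CG6574: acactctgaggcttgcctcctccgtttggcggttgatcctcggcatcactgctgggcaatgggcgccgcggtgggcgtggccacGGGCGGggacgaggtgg
CG34268: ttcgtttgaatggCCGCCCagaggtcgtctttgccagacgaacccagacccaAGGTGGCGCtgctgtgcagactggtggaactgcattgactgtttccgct
RhoGAP92B: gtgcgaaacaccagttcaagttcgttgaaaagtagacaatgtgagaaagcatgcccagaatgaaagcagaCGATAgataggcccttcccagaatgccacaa
RpL7: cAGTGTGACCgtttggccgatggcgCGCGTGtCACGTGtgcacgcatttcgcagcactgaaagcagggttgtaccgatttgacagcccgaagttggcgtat
CG14100: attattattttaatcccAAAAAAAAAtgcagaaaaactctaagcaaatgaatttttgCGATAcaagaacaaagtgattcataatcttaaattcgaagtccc

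The windows of tara, mub, moody and CG18622 held none of the 23 motifs. The MFS10 window held the core of the BEAF-32 motif, CGATA, on the - strand. The CG34268 window held the CTCF core AGGTGGCGC, and the RpL7 window held the M1BP core GGTCACACT on the - strand within the first bases shown. The CG14100 window held a run of A, and its GC content was 26.7%, where the GC-rich windows printed span 45.5% to 69.3%.

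GC-rich summits were a smaller share of the reproducible list than GC-rich sequence is of the genome. Of 1323188 windows of the same width laid end to end along the 6 arms, 40.1% had a GC content of 45% or more, and all these windows averaged 42.2% GC (SD 10.4). The lower share was not particular to reproducible summits. Of 21307 peak and background entries from the pooled reads that did not reach the reproducible list, 15.4% (14.9 to 15.9) were GC-rich. The GC-rich summits averaged 50.5% (SD 4.64, range 45.5% to 70.3%) and the other summits 30.5% (SD 6.02). Arm 2R held 107 GC-rich summits of 1444, 7.41% (6.17 to 8.88), and X held 80 of 1561, 5.12% (4.14 to 6.33). The shares on 2L, 3L and 3R were 5.41%, 5.85% and 5.72%, and the intervals of 2L, 3L, 3R and X each overlapped that of 2R. Chromosome 4 held 1 of 25, near dati, which was named after its values were seen. At the threshold itself the values did not step: the 75 summits with 46 G or C bases, just inside, had a median signal value of 153, and the 82 with 45 bases, just outside, had 144. Of these, 28.0% just inside and 25.6% just outside lay in promoters.

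GC-rich candidates passed the reproducibility threshold less often than other candidates. The reproducible list is the upper part, by rank, of a list of 30000 peak and background entries made from the pooled reads, and 29.0% of the pooled entries on the arms passed. Of the GC-rich entries 509 of 3793 passed, 13.4% (12.4 to 14.5), against 8178 of 26201 other entries, 31.2% (30.7 to 31.8), a difference of -17.8 percentage points (95% Newcombe interval -18.98 to -16.5). The share that passed was 14.6% at a GC content of 45% to 50%, 12.0% at 50% to 55% and 12.5% at 55% or more. Below the GC-rich range it was 17.9% at 40% to 45%, 31.9% at 30% to 35% and 37.3% at 20% to 25%. Intervals throughout cover counting error only and treat summits as independent, which neighbouring summits are not.

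**Figure D1:**
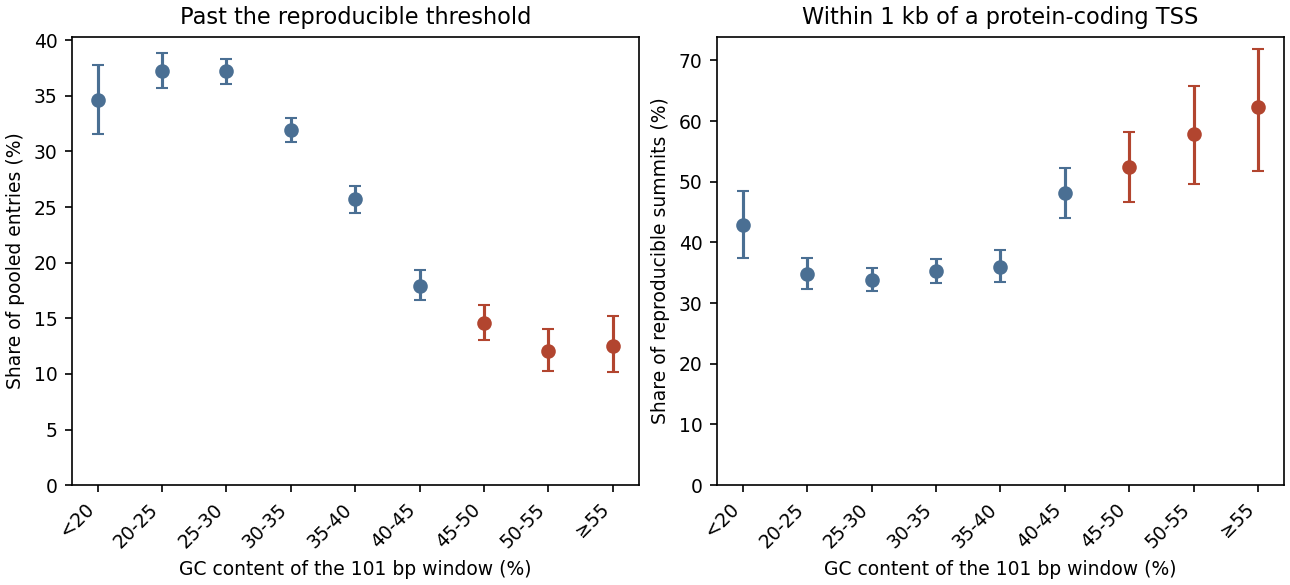
Share of pooled entries past the reproducible threshold (left) and share of reproducible summits within 1 kb of a protein-coding transcription start site (right), in %, by GC content of the window of 50 bp to each side; points are shares, bars 95% Wilson intervals, and red marks GC-rich summits. Passing was 14.6% or lower in every GC-rich bin and 31.9% at 30% to 35% GC, while the share near start sites was 52.5% or higher in every GC-rich bin and 35.3% at 30% to 35% GC.

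Summits that were GC-rich also ranked lower within the reproducible list. Their median signal value, the authors' strength of a peak on the scale of its own list, was 133 (quartiles 108 and 196), against 179.6 for other summits (quartiles 121 and 307). The list was split by rank into 4 groups of about equal size. In the strongest group 73 of 2170 summits were GC-rich, 3.36% (2.68 to 4.21), in the next 85 (3.92%), in the one after it 143 (6.58%) and in the weakest 208 of 2173, 9.57% (8.41 to 10.9). The top 100 ranks held 2 GC-rich summits, those nearest to tara and CG13501.

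The lower rank was seen in each replicate's own list. Ranks were expressed as the percentile of the signal value among that replicate's entries, for summits with a replicate summit within 250 bp. Summits lay as close as 199 bp to each other, so neighbours could match the same replicate entry. A percentile given here or below can therefore be that of a neighbour, and the part of this in the values was not tested. The median percentile was 84.2 for GC-rich summits and 86.6 for others in replicate 1, 79.8 and 85.2 in replicate 2, and 80.3 and 85.2 in replicate 3. The differences were -2.45, -5.46 and -4.89, with a mean of -4.27 (SD 1.60, n = 3), lower for GC-rich summits in 3 of 3 replicates. An exact two-sided sign-flip permutation test over the replicates gave p = 0.25, which is the smallest p that 3 replicates allow. The distributions overlapped widely, and among the stronger 50% of peaks the mean difference was -0.27. Without replicate 1 the mean difference was -5.17. With matches within 100 bp, over all 3 replicates, it was -4.55.

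**Figure D2:**
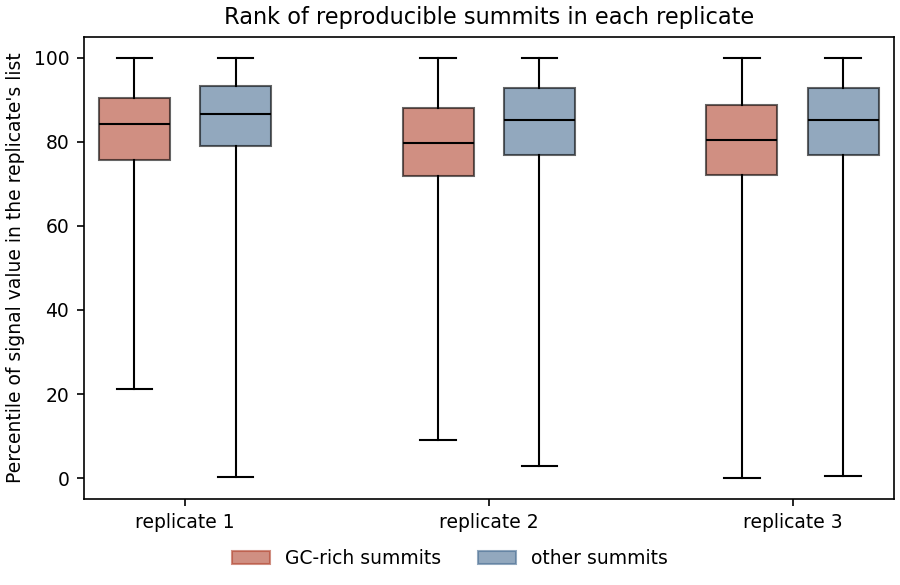
Percentile of the signal value within each replicate's own list for GC-rich summits (left box of each pair) and other summits (right box); lines are medians, boxes quartiles and whiskers the full range. The GC-rich median is below the other median in each of the 3 replicates, with differences of -2.45, -5.46 and -4.89 percentile points.

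Support by all replicates was lower for GC-rich summits, and at a matching distance of 250 bp replicate 1 accounted for nearly all of that gap. All 3 replicates had a summit within 250 bp for 424 of the 509 GC-rich summits, 83.3% (79.8 to 86.3), against 7439 of the 8178 others, 91.0% (90.3 to 91.6), and 90.5% of all. The difference was -7.66 percentage points (-11.2 to -4.61). Replicate 1 held 84.7% of GC-rich summits and 92.2% of others (91.7% of all), replicate 2 held 99.4% and 99.1% (99.1% of all), and replicate 3 held 99.0% and 99.5% (99.5% of all). Asking only for replicates 2 and 3 gave a difference of -0.13 (-1.58 to 0.63). With matches within 100 bp in all 3 replicates the difference was -13.8 (-17.99 to -9.84), and it was not computed without replicate 1. The replicate lists hold background entries too, so a match need not be a peak.

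The higher GC-rich share of replicate 1's list lay among its weak entries. Among each replicate's strongest entries, as many as the reproducible list holds, the shares were 6.98%, 6.69% and 7.06% in replicates 1, 2 and 3. The gap in replicate 1 was wider on X, where it held 52 of 80 GC-rich summits (65.0%, 54.1 to 74.5) and 83.5% of the others, than over the remaining arms, where it held 88.3% and 94.1%. Without X, 86.7% of GC-rich summits and 92.6% of others were found in every replicate. In the 4 rank groups, strongest first, 93.2%, 81.2%, 88.1% and 77.4% of GC-rich summits had full support, and 96.0%, 91.7%, 89.6% and 86.3% of the others. The difference was -2.84, -10.5, -1.49 and -8.86 percentage points in these groups, so neither the GC-rich share nor the difference followed rank in order. The part of rank and of the X chromosome in the gap was not tested.

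The summits that a replicate lacked were few outside replicate 1. Replicate 1 had no summit within 250 bp of 78 GC-rich summits, replicate 2 of 3 and replicate 3 of 5. Replicate 2 lacked those near CG43338, NLaz and Rap1, and replicate 3 those near nw, CG43338, CG4935, crol and psq, all named after their values were seen. Only the summit near CG43338, which lies inside the pseudogene CR42490, was found in a single replicate.

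Whether a summit was GC-rich depended on its exact position. The median distance between a GC-rich summit and its match was 18 bp in replicate 1, 15 bp in replicate 2 and 16 bp in replicate 3. At the matched summit the GC content was again 45% or more for 71%, 72.3% and 74.8% of GC-rich summits, and for 2.43%, 2.12% and 2.10% of others. Of the 424 found in every replicate, 203 (47.9%, 43.2 to 52.6) were GC-rich at all 3 matched summits.

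The GC content 250 bp away from GC-rich summits was on average lower than at the summits. Windows of the same width centred 250 bp away averaged 41.2% GC on the left and 42.8% on the right of GC-rich summits, and 44.7% and 44.9% beside the others. The summit window was higher than the mean of its flanks by 8.56 percentage points at GC-rich summits (SD 8.30), and higher at 430 of 509, against a difference of -14.3 (SD 9.79) at the others. The summit window is what the rule selects, so the rule fixes the sign of this contrast, which is a description. Genome windows of any GC content averaged 42.2%, and the flanks of genome windows of 45% GC or more were not measured.

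Windows under 35% GC were found within 250 bp of most GC-rich summits. The lowest GC content of any window of this width centred within 250 bp of a GC-rich summit averaged 27.3% (SD 7.92), and was under 35% for 422 of 509 (82.9%, 79.4 to 85.9). Around the other summits it averaged 22.9% (SD 4.99) and was under 35% for 98.9%. The lowest window lay at a median distance of 158 bp from GC-rich summits and 46 bp from others. The rule fixes part of this contrast, because windows centred near a summit overlap the window that the rule selects. The lowest window lay to the left, on the + strand of the genome, for 56.6% of GC-rich summits (52.2 to 60.8) and for 51.5% of others (50.5 to 52.6).

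**Figure D3:**
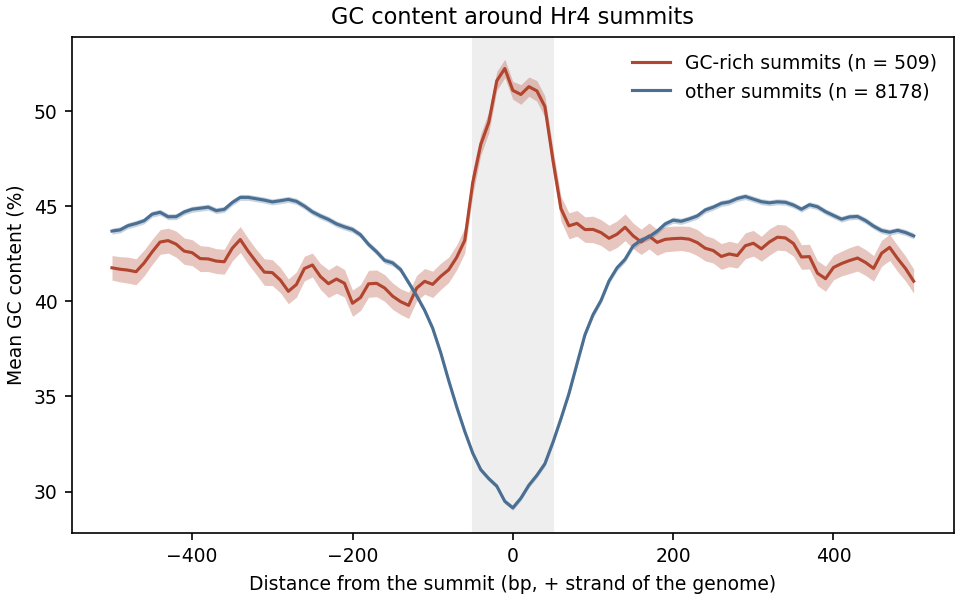
Mean GC content, in %, in windows of 21 bp against distance from the summit in bp on the + strand of the genome, for GC-rich and other summits; bands are the standard error over summits and the grey area marks the window of the rule. At the summit the GC-rich mean is 51.1% and the other mean 29.1%, and at -200 bp they are 39.9% and 43.8%.

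Many GC-rich summits stood beside a second summit, which was usually the stronger one. Another reproducible summit lay within 500 bp of 123 GC-rich summits (24.2%, 20.6 to 28.1), against 832 of the others (10.2%, 9.54 to 10.8). That neighbour had a higher signal value than the GC-rich summit in 93 of 123 cases (75.6%, 67.3 to 82.3), while the neighbours of other summits were stronger in 380 of 832 (45.7%, 42.3 to 49.1). Other summits that are each other's nearest neighbour enter both as the stronger and as the weaker of the pair, so the 45.7% is partly set by the counting. GC-rich summits had lower signal values in general, and the part of this in the 75.6% was not tested. In 11 of the 123 cases the neighbour was GC-rich itself. Among the named summits, those at Pal2, tapas, egh and RYBP had such a neighbour, at 199, 200, 205 and 329 bp.

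Promoters and exons held a larger share of GC-rich summits than of the others. Promoters, taken as 250 bp to each side of any annotated transcription start site (TSS), held 173 of 509 (34.0%, 30.01 to 38.2) against 1560 of 8178 (19.1%, 18.2 to 19.9), a difference of 14.9 percentage points (10.8 to 19.2). Introns held 39.5% (35.3 to 43.8) against 55.3%, and intergenic sequence 77 (15.1%, 12.3 to 18.5) against 22.3%. 5′ UTRs held 22 (4.32%, 2.87 to 6.46) against 1.01%, and exons of non-coding genes 16 (3.14%, 1.94 to 5.04) against 1.32%. In the strongest entries of replicates 1, 2 and 3 taken alone, the promoter difference was 11.1, 15.4 and 15.7 points. The 8 in 3′ UTRs (1.57%) against 0.97% gave a difference whose interval included 0 (-0.20 to 2.12). Each summit was put in the first class it met in the order promoter, 5′ UTR, coding exon, 3′ UTR, non-coding exon, intron and intergenic.

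**Figure D4:**
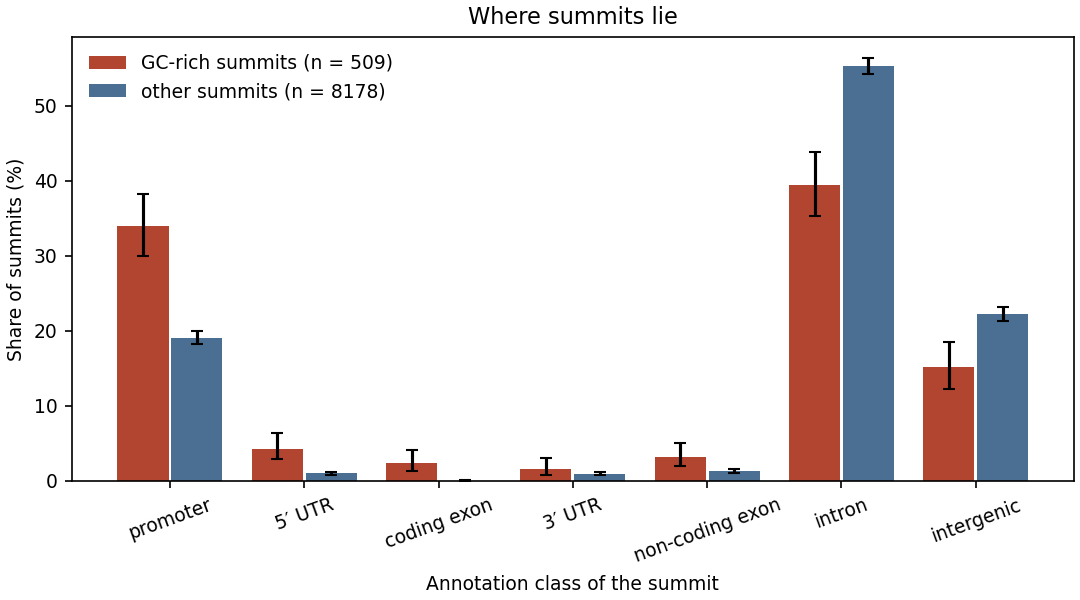
Share of summits, in %, in each annotation class, for GC-rich summits (left bars) and other summits (right bars); error bars are 95% Wilson intervals. Promoters hold 34.0% of GC-rich and 19.1% of other summits, and introns 39.5% and 55.3%.

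The promoter share of GC-rich summits differed little with rank, while that of the others was lower at lower rank. In the 4 rank groups, strongest first, promoters held 30.1%, 36.5%, 31.5% and 36.1% of GC-rich summits, and 27.1%, 19.03%, 16.2% and 13.6% of the others. In the strongest group the difference was 3.05 percentage points (-6.46 to 14.5) and in the weakest 22.5 (16.1 to 29.3), intervals that did not overlap. Promoter summits that were GC-rich had a median signal value of 130.3, against 224 for other promoter summits. In introns the medians were 139 and 179, in intergenic sequence 139 and 159, and in 5′ UTRs 144 and 159, so GC-rich summits had the lower median in each of these 4 classes.

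GC-rich summits lay nearer to start sites than the other summits did, also among summits within 1 kb of one. The distances of genome windows of 45% GC or more to start sites were not measured. Distances of 1 kb or less to a protein-coding TSS were found for 283 (55.6%, 51.3 to 59.9) against 2948 of the others (36.0%, 35.01 to 37.1), and distances of 100 bp or less for 93 (18.3%, 15.2 to 21.9) against 451 (5.51%, 5.04 to 6.03). Over all summits the median distance was 706 bp for GC-rich and 2068.5 bp for others. Among those within 1 kb, 60.8% of GC-rich summits (54.98 to 66.3) and 73.8% of others (72.2 to 75.3) lay upstream, and the median position was -45 bp and -155 bp, where negative values are upstream. The last 100 bp before the start site held 62 of the 283 GC-rich summits (21.9%) and 10.3% of the others, and the 100 bp before that held 12.4% and 22.2%.

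Coding exons held 16 summits in all, most of them GC-rich. They held 12 of 509 GC-rich summits (2.36%, 1.35 to 4.08) and 4 of 8178 others (0.05%, 0.02 to 0.13), so 75% of coding exon summits (50.5 to 89.8) were GC-rich, and of 5′ UTR summits 22 of 105 were (21.0%, 14.3 to 29.7). The mean GC content of the 12 was 57.3% (SD 5.51). Exons have a higher GC content than introns, and the GC-rich share of coding exon sequence itself was not set beside the 75%. Whether the 75% differs from that share was not tested. The strongest lay inside otp, which encodes a homeodomain transcription factor, at chr2R:20884578, with signal value 486, and its percentiles were 97.7, 96.3 and 94.8 in replicates 1 to 3. Its nearest protein-coding start site is that of Cib2. The next lay inside klar, a gene for moving nuclei and lipid droplets along microtubules (signal 158, percentiles 91.2, 55.7 and 72.9, nearest start site CG34268), and inside LRP1, a receptor of the low-density lipoprotein receptor family (signal 133, percentiles 80.8, 76.4 and 71.4). These replicate values show that the otp summit was high in every replicate and the klar summit highest in replicate 1.

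The other 9 coding exon summits had signal values of 123 or less, and their nearest start sites were those of CG6574, Snx27, sgg, Or65c, CG32264, Ero1L, Acp63F, capu and CG7272. All but the last were found in every replicate. At the stronger 50% of peaks only the otp summit was left, and the difference in coding exon share was 0.61 percentage points (0.08 to 3.47).

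The windows held more exon and fewer soft-masked bases than those of other summits. They overlapped an exon for 161 GC-rich summits (31.6%, 27.7 to 35.8) against 10.2% of others, and coding sequence for 26 (5.11%, 3.51 to 7.38) against 0.50%. Exons have a higher GC content than introns and intergenic sequence, and these overlaps were not set against genome windows of 45% GC or more. Soft-masked bases, the repeats and low-complexity runs marked in the genome file, made up 9.0% of the GC-rich windows on average (SD 14.8) and 25.1% of the others (SD 20.5). Low-complexity runs of A and T count among these bases, and the rule leaves few of them. Annotated transposable elements overlapped 3 GC-rich windows (0.59%) and 38 of the others (0.46%), a difference whose interval included 0 (-0.30 to 1.26). The ratio of observed to expected CpG dinucleotides was 0.94 in GC-rich windows, 1.04 in those in promoters, 0.84 in the others and 0.86 in genome windows of 45% GC or more.

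Motif counts were read against 2 sets beside the other summits, since GC content alone changes how often a motif occurs. One was the 530390 genome windows of 45% GC or more, and the other the 3284 GC-rich entries of the pooled list below the threshold. Of 23 motifs searched on both strands, the interval of the GC-rich share lay above the genome share for 8, held it for 15 and lay below it for 0. Against the GC-rich entries below the threshold, it lay above for 1, the CTCF core, and below for 1, the TATA box TATAAA. Both pairs of intervals nearly met, at 0.67% and 0.64% for the CTCF core and at 4.08% and 4.19% for TATAAA. No allowance was made for the number of motifs compared. DRE contains the BEAF-32 core, so its windows count for both, and the extended half-site contains the half-site.

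GAGA and BEAF-32 motifs were the most frequent, and they are also the shortest of the 23, so their shares cannot be ranked against those of longer motifs. GAGAG was in 118 GC-rich windows (23.2%, 19.7 to 27.0), in 7.46% of the others and in 14.7% of the genome windows, and in 20.01% of GC-rich entries below the threshold (18.7 to 21.4). In windows 500 bp to the left and right of the GC-rich summits it was in 13.6% and 11.8%. CGATA was in 76 (14.9%, 12.1 to 18.3), in 10.7% of others and 10.4% of genome windows. In GC-rich entries below the threshold it was in 11.5% (10.5 to 12.7), an interval that overlapped. GC-rich promoter windows held it at 24.3% against 10.1% outside promoters.

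Among rarer motifs, CTCF and promoter elements were placed differently. The CTCF core AGGTGGCGC was in 7 GC-rich windows (1.38%, 0.67 to 2.81), against 9 of the others (0.11%), 0.13% of genome windows and 0.37% of GC-rich entries below the threshold (0.21 to 0.64). CTCF is an architectural protein that separates chromatin domains. The 7 lay near CG34268, Sqor, dco, CG43693, soti, Cph and Jhbp1, with signal values of 99.0 to 158, and 0 of them were in promoters. All 7 ranked in the weaker 50% of the list.

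DRE (TATCGATA) was in 6 GC-rich windows (1.18%, 0.54 to 2.55), all in promoters, against 0.64% of others and 0.12% of genome windows. Their genes were JIL-1, a histone H3 kinase, grsm, CG5726, RpS29, Nmda1, a glutamate receptor subunit, and Rab8, a vesicle trafficking GTPase, with signal values of 90.8 to 135. The M1BP core was in 5 (0.98%, 0.42 to 2.28) against 0.22% of others and 0.09% of genome windows. These were in the promoters of RpL7, RpS23, Mef2, a muscle transcription factor, and IPIP, and in intergenic sequence near slp2, named after their values were seen. Both motifs had wide intervals, and against GC-rich entries below the threshold, at 0.46% and 0.30%, they overlapped. The remaining motifs above the genome share were a run of A, the NRF1/ewg core GCGCATGC, in 6 (1.18% against 0.09% of others and 0.33% of genome windows), and the CRE TGACGTCA, in 3 (0.59% against 0.09% and 0.16%), near CG7656, hwt and Nmda1, named after their values were seen.

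Nuclear receptor sites were rare. The half-site AGGTCA, the element that receptors of this family bind, was in 14 GC-rich windows (2.75%, 1.65 to 4.56), against 1.74% of others (1.48 to 2.04) and 3.30% of genome windows. The extended form TCAAGGTCA was in 0 of 509, which allows a share of up to 0.589% (3 counts of the total), against 2 of 8178 others. The 14 included the summits near CG13501 (signal 1604) and wde (signal 1124), and also those near isoQC, sbb and ftz-f1, itself a nuclear receptor gene, which were named after their values were seen.

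Motifs of A and T alone were in fewer GC-rich windows than other windows, a contrast that the rule fixes through GC content. TATAAA was in 12 GC-rich windows (2.36%, 1.35 to 4.08) and in 25.7% of others, beside 2.67% of genome windows of 45% GC or more and 4.87% of GC-rich entries below the threshold (4.19 to 5.66). A run of 8 A was in 15 (2.95%, 1.79 to 4.80) and 9.93% of others, and in 1.14% of genome windows. Set against genome windows of 45% GC or more, the interval of TATAAA held the genome share, and that of the A run lay above it.

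**Figure D5:**
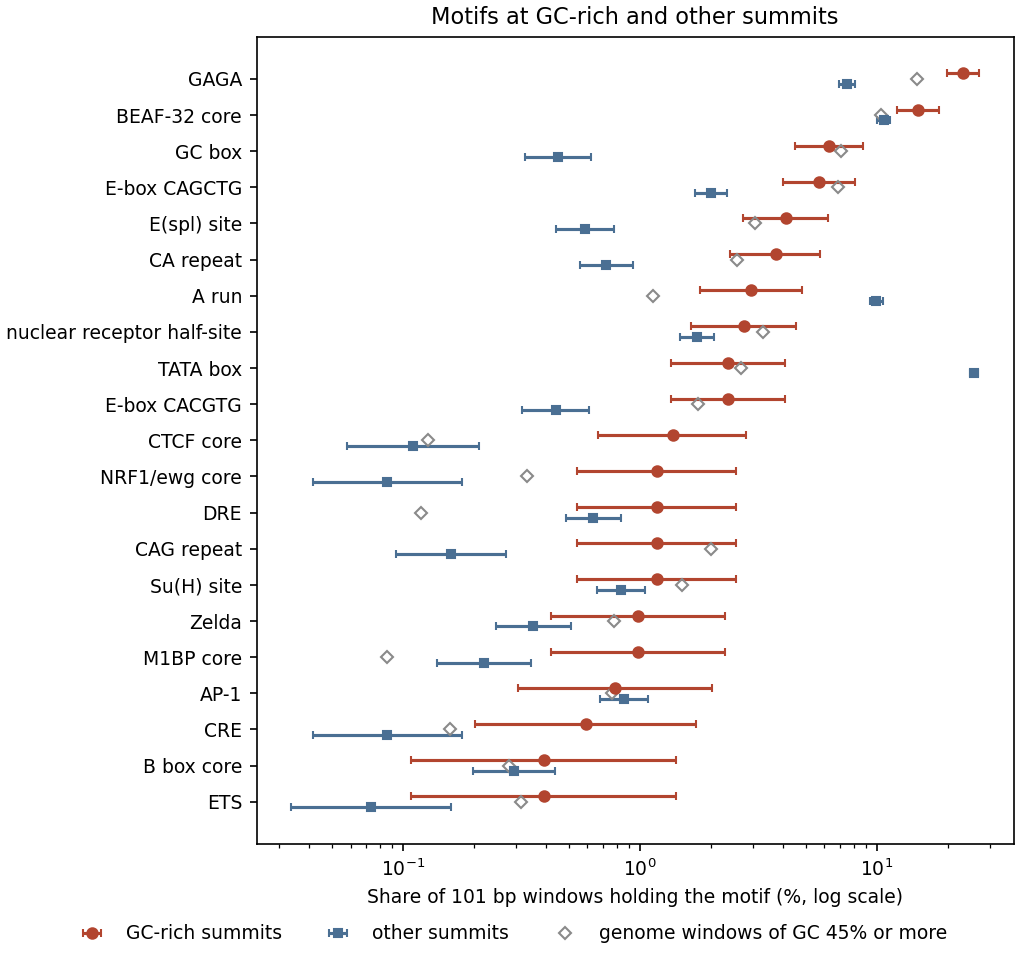
Share of windows of 50 bp to each side of the summit, in % on a log scale, that held each motif, for GC-rich summits (circles), other summits (squares) and genome windows of 45% GC or more (diamonds); bars are 95% Wilson intervals, and motifs found in 0 GC-rich windows are left out. GAGA is at 23.2%, 7.46% and 14.7%, and the CTCF core at 1.38%, 0.11% and 0.13%.

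The strongest GC-rich summits were high in every replicate. The strongest lay in intergenic sequence at -3149 bp from the start site of tara (FBgn0040071), a cell cycle and sleep regulator, with signal value 1689.6, rank 51 and percentiles of 99.9, 99.8 and 99.9 in replicates 1 to 3. The second, in an intron of Snp and nearest to CG13501 (FBgn0034684), had 1604 and percentiles of 99.8, 99.7 and 99.8. In the promoter of MFS10 (FBgn0030452), a transporter of the major facilitator family, the signal was 1274, with percentiles of 99.4, 99.7 and 99.7. These 3 differed by less than 1 percentile between replicates.

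The next in rank lay in introns, promoters, intergenic sequence and a 5′ UTR. The summit in an intron of wde, a partner of an H3K9 methyltransferase, had signal 1124, that in the 5′ UTR of Fbl6, an F-box protein, 978, and that in an intron of mub, an RNA-binding protein, 882. At moody, a receptor needed for the blood-brain barrier, the promoter summit had 782 and a GC content of 54.5%, and the summit in the promoter of CG18622 had 781. The rest of the 15 strongest were nearest to egh (747), a glycolipid mannosyltransferase, CG43245 (723), Glut4EF (717), a transcription factor, CG2811 (681), CG11362 (653), in an intron of dnr1, Unc-76 (642), a kinesin adaptor, and fax (615). Of the 15, 7 lay in introns, 4 in promoters, 3 in intergenic sequence and 1 in a 5′ UTR, and all 15 were found in all 3 replicates with percentiles of 93.1 or higher.

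The strongest in the smaller classes were of moderate signal. After Fbl6, 5′ UTR summits lay at chk, a monocarboxylate transporter (579), and cic, a repressor acting downstream of receptor tyrosine kinases (426). In 3′ UTRs they lay at qvr, nearest to E(Pc) (607), St3, nearest to Pal2 (269.8), and Lsd-2, a lipid droplet protein, nearest to dob (224). Exons of non-coding RNAs held summits nearest to RhoGAP92B (439), Hsp60B (255) and CG7065 (253), and replicate 1 lacked the last.

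The 5 highest GC contents belonged to summits with signal values of 123 to 318, none among the 15 strongest. That at -111 bp from Dll, the homeobox gene of limb development, had 70.3% GC and signal 131, with percentiles of 66.1, 81.2 and 84.4. The coding exon of SelR, a methionine sulfoxide reductase gene, nearest to CG6574, had 69.3% and percentiles of 86.3, 39.4 and 57.6. Kdm2, a histone demethylase, had 68.3% at its promoter and a signal of 213, and replicate 1 lacked it. Summits near Rh5, a rhodopsin (66.3%), and RYBP, a Polycomb group partner (65.3%), had signals of 199 and 318. The summit near CG8745 tied with the one near RYBP in GC content (65.3%) and was the weaker of the pair (signal 191), so the fifth place went to RYBP. The 5 differed in their replicates, with RYBP alone above 92 in each.

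Some GC-rich summits ranked high in a replicate and low in another. The CG7386 promoter summit had percentiles of 88.2, 9.08 and 83.9 in replicates 1 to 3. Tollo, a Toll family receptor, had 91.8, 12.9 and 76.1. At E2f1, a cell cycle transcription factor, they were 87.6, 12.8 and 68.9, at tapas, a Tudor protein of the piRNA pathway, 86.3, 50.7 and 15.2, and at RpL4 81.4, 13.1 and 57.3. These are the 5 with the widest spread, and replicate 1 was the highest in each.

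A few genes held several GC-rich summits. Egfr, the epidermal growth factor receptor, Eip75B and Hr4, both nuclear receptors, psq, a GAGA-binding protein, and ush, a cofactor of GATA factors, held 3 each, out of 7, 14, 14, 16 and 15 summits inside them; these genes were named after their values were seen. In Hr4, a gene on X between 1941940 and 2007956 (+ strand), the summits at 1988888, 1984326 and 1966100 were all intronic, with signals of 526, 241 and 118. The first was not found in replicate 1 and had percentiles of 96.9 and 97.5 in replicates 2 and 3, and the third had 21.2, 80.6 and 79.3. The transgene holds Hr4 sequence, and its part in these values was not tested. In Eip75B the signals were 303, 147 and 131, all in introns, and each was found in every replicate.

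Gene lists were described by how many genes had a GC-rich summit within 1 kb of a start site, as 339 of 13945 protein-coding genes (2.43%) did, while 3164 (22.7%) had any summit. Of 22 ecdysone response genes 0 had a GC-rich summit and 14 had some summit. At 5 kb 5 of the 22 had a GC-rich one (22.7%), beside 864 of the 13945 protein-coding genes (6.20%). Summits of any kind were also more common at these genes, with 18 of the 22 at 5 kb, beside 6259 of the 13945. The part of this in the GC-rich count was not tested. Ribosomal protein genes, taken by symbols that start with RpL or RpS, had 10 of 92 (10.9%) with a GC-rich summit and 34 with any. Translation factors had 3 of 33 (eIF3h, eIF4A and eIF5B) and 9 with any. Glycolysis had 2 of 13 and 8, heat shock and chaperone genes 1 of 22 and 7, architectural and insulator genes 0 of 17 and 6, and histone genes 0 of 111 and 0.

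The ribosomal summits were all in promoters and mostly weak. RpL7, a protein of the large subunit, had signal 309 at 34 bp from its start site and percentiles of 94.8, 90.2 and 92.1. The remaining 9, RpL4, RpL22, RpL23, RpLP0-like, RpS5a, RpS10b, RpS23, RpS28b and RpS29, had signals of 88.6 to 131, and RpL22, RpS5a and RpS10b, all on X, were not found in replicate 1. RpLP0-like is a gene that the symbol rule takes in although its name marks it only as similar to a ribosomal protein. Its summit lay 52 bp from its start site and is also a promoter summit of 14-3-3zeta, the nearest gene, at -35 bp.

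Metabolic and chaperone genes gave single cases. Pgk, phosphoglycerate kinase, had signal 557 and percentiles of 90.0, 83.6 and 96.8. Hex-A, a hexokinase, had a pair of GC-rich summits, of 100.8 and 96.4, and Hsp83, the fly Hsp90, had 284 with percentiles of 91.4, 90.9 and 91.6. The Hsp83 summit lay in the Hsp83 promoter, at 121 bp from the start site. That of Pgk lay 851 bp from the Pgk start site and is a promoter summit of Bacc, the nearest gene, at -228 bp. The eIF5B promoter summit had 396 and percentiles of 40.3, 95.6 and 93.8, and eIF3h, with 492, had none in replicate 1 and 96.5 and 96.6 in replicates 2 and 3. Thus eIF5B and eIF3h were high in replicates 2 and 3 and low or missing in replicate 1.

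Of 290 tRNA genes 5 had a GC-rich summit within 1 kb (1.72%) and 48 any summit (16.6%), beside 2.43% and 22.7% of protein-coding genes. The 5 share 2 summits: that at the start of tRNA:Glu-CTC-1-1 counts also for tRNA:Glu-TTC-1-1 and tRNA:Glu-TTC-1-2, and another for tRNA:Phe-GAA-1-6 and tRNA:Phe-GAA-1-7. GC-rich summits lay inside 1 tRNA gene (tRNA:Glu-CTC-1-1, signal 119) and 2 of 32 small nuclear RNA genes, snRNA:U1:95Ca (118), which encodes the splicing RNA U1, and snRNA:7SKa (103), whose RNA holds the elongation factor P-TEFb inactive. Of the 8178 other summits 0 lay inside a tRNA or small nuclear RNA gene. Genes of these families have near-identical copies, and the sources used here do not say how reads that match several copies were treated.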

How the data were processed

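The authors made narrowPeak lists from aligned ChIP and control reads, per the deposited text files: a relaxed list per replicate, a relaxed list of the pooled replicates, and the optimal list that irreproducible discovery rate analysis selected. Aligner, peak caller, versions and threshold: not given in the sources used here. The unit is the deposited signal value, compared only within a list. Positions came from the deposited summit offset. Depth per sample is unknown here, and no interval uses it. The dm6 optimal list held 8693 peaks, of which 6 lay off the 6 arms. It equalled the 8693 highest of 30000 pooled entries. In 29 cases an entry repeats an interval with another summit. The dm3 lists were not used here.

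GC content, motifs and classes were computed on the Release 6 genome with the Ensembl release 115 annotation (BDGP6.54), whose arm lengths contain all peaks. Shares carry 95% Wilson intervals and differences Newcombe intervals. Summits matched within 250 bp. The only test was the exact sign-flip test over 3 replicates. With 3 differences of the same sign its p is 0.25 whatever their size, so it does not measure the spread between replicates. The code was tested on simulated data first. Python 3.11.15, numpy 2.4.6, pandas 2.3.3, SciPy 1.17.1, statsmodels 0.14.6 and matplotlib 3.10.9 were used.

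Members, gene lists (8) and motifs (23) were chosen with earlier results of these data known. The text names the protein-coding gene nearest to the 15 strongest GC-rich summits, the 3 strongest per class, the 5 of highest GC content and the 5 whose percentile differed most between replicates, 36 genes in all. Alternatives changed the GC threshold, window, promoter, TSS, flank and matching distances, peak strength, X, repeated intervals and replicates. Asking for 45% GC at every replicate's summit was added after seeing the data.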

Additional observations from a re-analysis of the deposited data

How the results depend on the processing

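Among the 6 results whose direction the rule does not fix, the sign was the same in all 70 recomputed values. The GC-rich share has no sign, and the rule fixes that of summit minus flank GC. The share of GC-rich summits was 12.3% and 2.59% at GC thresholds of 40% and 50%, 9.27% and 4.93% in windows of 25 and 100 bp to each side, 3.64% among the stronger 50% of peaks, and 6.98%, 6.69% and 7.06% in the lists of replicates 1, 2 and 3 alone. The narrower window gave differences of 10.2 points for promoters, 14.3 for TSS within 1 kb and -16.1 for passing the threshold, and replicate 1 alone gave 14.4 for TSS. Among stronger peaks the promoter difference was 10.5. The coding exon difference was 4.83 at 50% GC, 0.61 among stronger peaks and 5.37 when GC was asked of every replicate. Summit minus flank GC was 4.22 and 12.6 at 40% and 50%, 8.96 and 5.39 in the narrower and wider windows, 7.17 among stronger peaks, 9.90 with GC asked of every replicate and 7.69 in replicate 1 alone. The support difference was -13.8 at 100 bp, and -8.02 to -0.13 when a replicate was left out, the second without replicate 1. The rank difference was -5.17 to -3.67 when a replicate was left out and -0.27 among stronger peaks, and its test cannot pass 0.05 under any setting. The cause of these shifts was not tested, beyond that a threshold or window changes which summits count. Of 78 values for motifs and gene lists 31 moved, most with the width of the motif window. No paired analysis was possible between groups of samples because the replicates form 1 group; the rank difference compares both kinds of summit within each replicate. Depth is unknown, so what it limits could not be measured.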
